A study of Mus musculus with 5 samples.

Results

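Dppa2, Dppa3, Dppa4, Utf1, Lin28a and Lin28b are 6 genes expressed in the early mouse embryo and in pluripotent cells, and the peaks of H2AK119ub and of RYBP over their bodies and 2 kb flanks were examined in DDX5 knockout and wild-type mouse embryonic stem cells. The genes were taken by name from the RefSeq table of mm10, which holds 21627 protein-coding genes on chromosomes 1 to 19 and X. All 6 were found, and 8 of the 54793 peaks of the 3 deposited lists lay over them. Of these, 2 were from H2AK119ub in the DDX5 knockout, 3 from H2AK119ub in the wild type and 3 from RYBP in the wild type.

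DDX5 is a DEAD-box RNA helicase. The knockout was 1 clonal line derived from the embryonic stem cell line MPI-II, in which a nickase form of Cas9 had been directed to exon 2 of Ddx5 by a pair of guide RNAs, and it was set against the wild-type MPI-II line. Both were grown on feeder cells in serum with LIF, 1 μM of a MEK inhibitor and 3 μM of a GSK3 inhibitor, and were used at passages 13 to 18. Chromatin immunoprecipitation and sequencing (ChIP-seq) was done for H2AK119ub in both genotypes and for RYBP, with an antibody named for its alias DEDAF, in the wild type. A single library stands for each of the 3 groups, so differences have no replicate check and were not tested. The input library of each genotype was not used here.

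H2AK119ub is monoubiquitinated histone H2A, written by Polycomb repressive complex 1, and lies mostly at genes that are silent or held at a low level. RYBP belongs to the variant versions of the complex, which are often found at CpG islands, at active genes as well as at silent ones. Among the 6 genes, DPPA2 and DPPA4 are paralogous SAP-domain proteins that act together on CpG-rich, bivalent promoters and protect them from DNA methylation. DPPA3, also called STELLA, is a maternal factor that guards the DNA methylation pattern of the oocyte and zygote by restraining UHRF1. UTF1 is a chromatin-bound protein of pluripotent cells and a classical target of OCT4 and SOX2. LIN28A and LIN28B are RNA-binding proteins that block the maturation of let-7 microRNAs.

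The knockout list held 20994 H2AK119ub peaks over 30.6 Mb and the wild-type list 24235 over 45.9 Mb, a ratio of covered length of 0.666, and the RYBP list held 9564 peaks over 17.2 Mb. The median peak width was 1083 bp in the knockout, 1360 bp in the wild type and 1634 bp for RYBP. The lists hold positions only. Read depth is unknown, and a shallower or less enriched library gives fewer and narrower peaks, which cannot be told apart here from a difference between genotypes. Ddx5 itself had no H2AK119ub peak in the knockout or in the wild type and 2289 bp of RYBP, which does not check the genotype labels, since peaks give no expression level. Rybp had 1673 bp of H2AK119ub in the knockout, 1300 bp in the wild type and 1960 bp of RYBP. For the same reason the peaks do not check the cell type.

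The promoters printed below are those of the 3 members that matched the RefSeq promoter table. Each is 300 bases long (250 before and 50 after the start site) and read 5′ to 3′ on the strand of the gene. They are shown because Utf1 and Lin28a had peaks over them, while at Lin28b the peak lay elsewhere. Capitals mark each CG, and at Lin28b also the motif CACGTG. The windows are chr7:139943606-139943905 on the plus strand for Utf1, chr4:134018767-134019066 on the minus strand for Lin28a and chr10:45470152-45470451 on the minus strand for Lin28b, all in GRCm38.p6, the RefSeq release of mm10.
Utf1: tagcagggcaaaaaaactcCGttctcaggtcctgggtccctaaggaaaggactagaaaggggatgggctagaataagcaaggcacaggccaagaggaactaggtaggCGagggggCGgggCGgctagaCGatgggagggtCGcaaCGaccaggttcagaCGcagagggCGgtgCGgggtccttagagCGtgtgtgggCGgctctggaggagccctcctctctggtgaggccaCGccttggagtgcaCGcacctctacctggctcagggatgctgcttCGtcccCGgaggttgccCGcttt
Lin28a: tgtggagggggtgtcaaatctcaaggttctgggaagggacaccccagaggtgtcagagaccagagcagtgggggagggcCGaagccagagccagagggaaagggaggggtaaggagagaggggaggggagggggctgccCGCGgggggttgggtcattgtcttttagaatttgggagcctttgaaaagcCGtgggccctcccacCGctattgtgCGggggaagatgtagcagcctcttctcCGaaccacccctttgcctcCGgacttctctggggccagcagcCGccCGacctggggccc
Lin28b: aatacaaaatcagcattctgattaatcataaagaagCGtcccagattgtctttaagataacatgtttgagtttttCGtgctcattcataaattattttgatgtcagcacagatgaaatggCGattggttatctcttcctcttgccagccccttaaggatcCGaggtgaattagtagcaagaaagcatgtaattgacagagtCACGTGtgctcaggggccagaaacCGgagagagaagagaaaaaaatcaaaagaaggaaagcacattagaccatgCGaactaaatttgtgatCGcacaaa

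The Utf1 promoter held 17 CG dinucleotides, more than 68.4% of the 32619 promoters of the table, and a C+G content of 62%. Lin28a held 10, more than 56.2% of promoters, at a C+G content of 63.3%. Lin28b held 8, more than 51.1% of promoters, with a C+G content of 39% that was above that of only 8.36% of promoters. The medians over the table were 7 CG and 53% C+G. The E-box CACGTG, the motif bound by MAX with partners such as MGA of a variant Polycomb complex, was found in Lin28b, beginning 49 bases before the start site, and in 7.20% of all promoters. Neither GCGGGAA, an E2F-type motif held by 4.63% of promoters, nor the octamer ATTTGCAT, held by 1.75%, was found in any of the 3 windows on either strand. A motif match describes letters in the window and no more.

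The 6 genes fell into several patterns. Utf1 and Lin28a carried the mark in both genotypes together with RYBP, as did 15.7% of protein-coding genes (20.7% had the mark in both, with or without RYBP), Dppa3 carried it in the wild type alone, and Dppa2, Dppa4 and Lin28b had none in either genotype (69.1% of protein-coding genes). The mark was thus present at 2 of 6 genes in the knockout, where 23.6% of protein-coding genes had it, and at 3 of 6 in the wild type, where 27.9% had it. RYBP was present at 3 of 6, Utf1, Lin28a and Lin28b, against 37.6% of protein-coding genes. With 6 genes these shares cannot be told apart from the background. None of the 6 was marked in the knockout alone, which held for 3.00% of protein-coding genes. Both knockout peaks were shorter than 1 kb, as were 43.9% of all knockout peaks and 24.1% of all wild-type ones. When narrower peaks were left out, the mark was at 0 of 6 genes in the knockout (18.2% of protein-coding genes), at 3 of 6 in the wild type (24.9%), and RYBP was at 3 of 6 (36.2%).

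**Figure D1:**
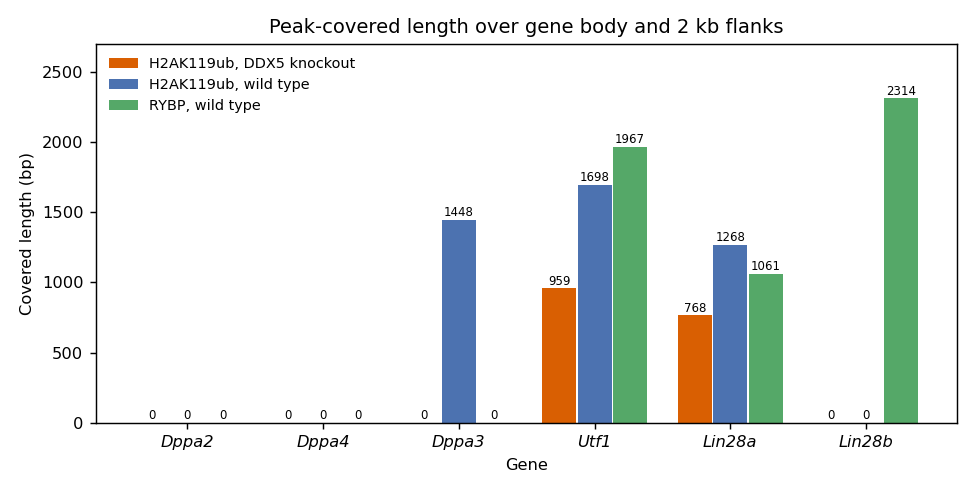
Base pairs of each gene's body and 2 kb flanks covered by peaks, in the H2AK119ub list of the DDX5 knockout, the H2AK119ub list of the wild type and the RYBP list of the wild type, with 1 library per bar and the value above it. Utf1 and Lin28a have all 3 bars, Dppa3 has wild-type H2AK119ub alone, Lin28b has RYBP alone, and Dppa2 and Dppa4 have none.

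Utf1 (gene ID 22286, chromosome 7, 139943856 to 139945112, plus strand) is a short gene of 1257 bp. Its knockout H2AK119ub peak ran from 139944236 to 139945194, a width of 959 bp, against 139943649 to 139945346, a width of 1698 bp, in the wild type. Its RYBP peak in the wild type was wider than either, 1967 bp from 139943450 to 139945416. The 3 peaks lay one within the other: the whole knockout peak fell inside the wild-type peak, and the whole wild-type peak inside the RYBP peak.

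The edges differed most on the promoter side. In the knockout the Utf1 peak began 380 bp downstream of the start site and covered none of the promoter shown above, while in the wild type it began 207 bp upstream of the start site and covered 257 of the 300 bases. RYBP began 406 bp upstream and covered all 300. On the far side the edges lay closer together, at 1338 bp from the start site in the knockout, 1490 bp in the wild type and 1560 bp for RYBP. The gene body was covered over 69.8% of its length in the knockout and 100% in the wild type. Over all promoters of the table, 7.34% were touched by a knockout H2AK119ub peak, 9.58% by a wild-type one and 22.1% by RYBP. A peak edge depends on depth and on the caller, so its place is known less well than the presence of the peak.

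Lin28a (gene ID 83557, chromosome 4, 134003330 to 134019196, minus strand) is 15867 bp long, and its peaks gathered at the start site. The knockout peak, from 134018183 to 134018950, was 768 bp wide, and the wild-type peak, from 134017628 to 134018895, was 1268 bp wide. The RYBP peak ran from 134017912 to 134018972, a width of 1061 bp, and was narrow for its list, in which 8.46% of peaks were narrower. All 3 covered the start site.

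At Lin28a the peak edges of the knockout and wild-type lists differed on both sides, and in opposite directions. The knockout peak reached 633 bp into the gene, against 1188 bp in the wild type, with RYBP between them at 904 bp. Upstream of the start site the knockout peak reached 134 bp, 55 bp farther than the wild-type peak at 79 bp, and RYBP reached 156 bp. Of the promoter shown above, 184 of 300 bases were covered in the knockout, 129 in the wild type and 206 by RYBP. The whole knockout peak lay under the RYBP peak, against 77.6% of the wild-type H2AK119ub peak. The RYBP list is from the wild type, so neither share shows where RYBP lies in the knockout. As at Utf1, peak edges depend on depth and on the caller, and the 55 bp upstream was not tested.

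**Figure D2:**
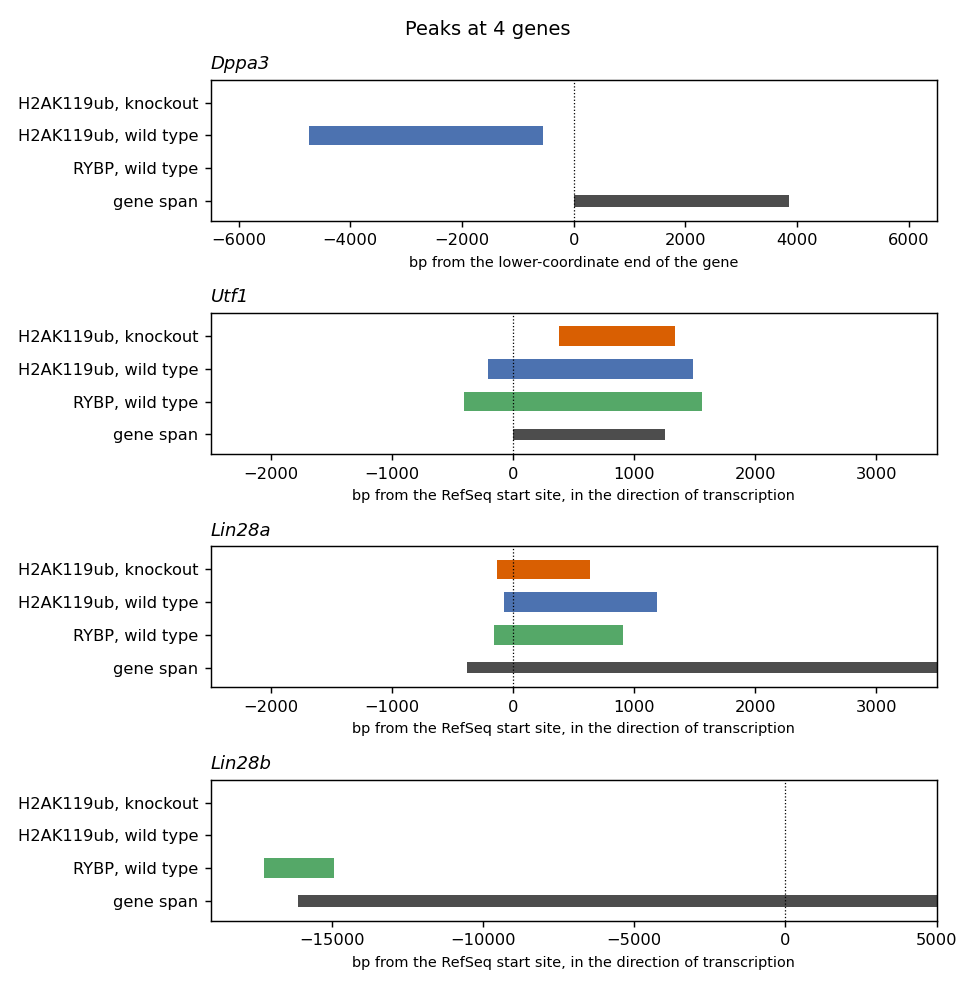
Peaks at Dppa3, Utf1, Lin28a and Lin28b in the 3 libraries, with the gene span as a dark bar; the x axis is the distance in bp from the RefSeq start site, or for Dppa3 from the gene's lower-coordinate end. At Utf1 the knockout peak begins 380 bp downstream of the start site, at Dppa3 the single wild-type peak ends 553 bp before the gene, and at Lin28b RYBP lies at the 5′ end of the gene span, upstream of the start site.

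The covered length in the knockout was 0.565 times that of the wild type at Utf1 and 0.606 times at Lin28a. These ratios were not unusual among all genes marked in both genotypes, though low among those with a like wild-type covered length. Over the 4466 protein-coding genes marked in both genotypes the median ratio was 0.718 (quartiles 0.487 and 0.962), and 32.7% of genes lay below Utf1 and 36.7% below Lin28a. A lower covered length in the knockout was seen at 78.6% of genes marked in both. On chromosome 7 the median was 0.624, and on chromosome 4 it was 0.636. Over the part of chromosome 7 from 130 to 140 Mb, at whose upper end Utf1 lies, the ratio of covered length, knockout over wild type, was 0.674, and over the part of chromosome 4 from 130 to 140 Mb, which holds Lin28a, it was 0.579. The first value covers almost nothing above Utf1. Among 735 genes with 1000 to 2000 bp covered in the wild type, the median ratio was 0.896, and 16.7% lay below Utf1 and 19.3% below Lin28a.

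Peak by peak, most pairs were also narrower in the knockout. Of 7627 peaks that paired uniquely between genotypes, 75.2% were narrower in the knockout, and in 40.9% the knockout peak lay inside the wild-type one, as at Utf1. Where RYBP was also present and the wild-type peak was 1000 to 2000 bp wide, as at both genes, 66.5% of 1104 pairs were narrower in the knockout, with a median width ratio of 0.867 (quartiles 0.695 and 1.07). Both genes lie below the lower quartile of that set.

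**Figure D3:**
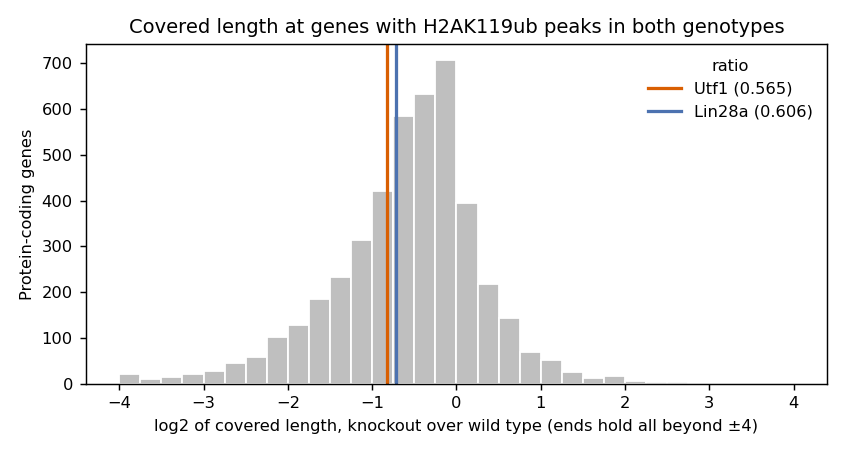
Histogram of protein-coding genes marked in both genotypes by the log2 ratio of covered length, knockout over wild type. The lines of Utf1 (0.565) and Lin28a (0.606) fall left of the median of 0.718 and inside the bulk of the genes.

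Dppa3 (gene ID 73708, chromosome 6, 122626424 to 122630271) lacked H2AK119ub peaks in the knockout and had 1 in the wild type, from 122621680 to 122625871. The wild-type peak was 4192 bp wide, wider than 93.5% of wild-type peaks, and ended 553 bp below the lower-coordinate end of the gene. It did not touch the gene body, and 1448 bp of it, or 34.5%, lay in the 2 kb flank. Dppa3 therefore counts as marked through its flank alone. No RYBP peak lay there, and the nearest one was 64.5 kb from the gene. A mark in the wild type alone was seen at 7.20% of protein-coding genes, and the pattern of Dppa3, a wild-type mark with neither a knockout nor a RYBP peak, at 3.36%.

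Wild-type peaks as wide as this one were seldom without a knockout counterpart. Of 1579 wild-type peaks at least as wide, 96.8% (Wilson 95% interval 95.8% to 97.6%) overlapped a knockout peak, against 48.9% of all wild-type peaks. Among those without RYBP, 634 of 673 did, 94.2% (92.2% to 95.7%). The Dppa3 peak was 1 of the 50 that did not, of which 39 had no RYBP and 15 lay on chromosome 8. The intervals treat peaks as independent and cover counting error only. Any shared base counted as an overlap and a wide peak has more room for one, so the shares of wide and of all peaks are not matched for width. This set was defined by the width of the Dppa3 peak after it had been seen, so the comparison describes where the peak falls and tests nothing.

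Dppa3 lies on a chromosome where peaks covered more length in the knockout list than in the wild-type list. Over the whole lists the ratio was 0.666. Peak lists do not measure the amount of the mark, and why chromosomes differ in this ratio was not tested. The ratio of covered length, knockout over wild type, was 1.36 over chromosome 6 and 1.08 times over its part from 120 to 130 Mb, which holds Dppa3. Of 316 protein-coding genes of chromosome 6 marked in the wild type, 86.1% were also marked in the knockout, against 74.1% of such genes over all chromosomes. That last share was 80.3% for genes with RYBP, as at Utf1 and Lin28a, and 59.5% for genes without it, as at Dppa3. Of 87 wild-type peaks of chromosome 6 at least as wide as that of Dppa3, 85 overlapped a knockout peak, and the only other exception was 6214 bp wide. 

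The Dppa3 peak also stood alone. The nearest knockout H2AK119ub peak was 133 kb from it and the nearest other wild-type one 59.7 kb. None of the other wide peaks without a counterpart lay as far from a knockout peak. The median distance of all 50 was 4.57 kb, and the next farthest lay at 130 kb. Among 25 wide wild-type peaks with no other wild-type peak within 50 kb, 23 overlapped a knockout peak and 20 had RYBP. Of the 5 isolated ones without RYBP, 3 overlapped a knockout peak. The protein-coding neighbours Gdf3, a TGF-beta family ligand 16.3 kb away, and Nanog, the pluripotency factor 77.2 kb away, had no peak of any library within 2 kb.

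**Figure D4:**
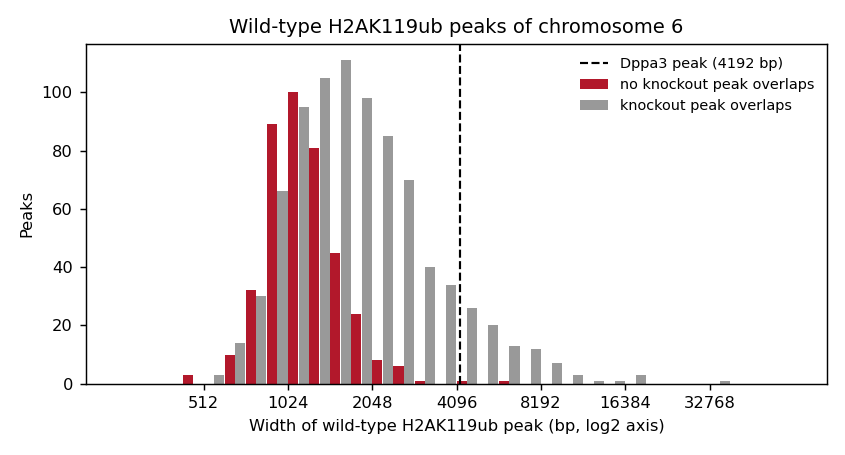
Widths of the wild-type H2AK119ub peaks of chromosome 6 on a log2 axis, split into those that no knockout peak overlaps and those that one does. At and beyond the dashed line of the Dppa3 peak (4192 bp), 2 peaks have no knockout counterpart and 85 have one.

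Dppa2 (gene ID 73703, chromosome 16, 48310274 to 48319513) and Dppa4 (gene ID 73693, chromosome 16, 48283735 to 48294292) lie 16 kb apart and had no peak in any of the 3 libraries, like 52.8% of protein-coding genes. The nearest H2AK119ub peak to Dppa2 was 3823 kb away in the knockout and 1811 kb away in the wild type, and for Dppa4 these distances were 3797 and 1785 kb. The nearest RYBP peak lay 1535 kb from Dppa2 and 1560 kb from Dppa4. Both genes therefore share the same peak-free stretches, which measured 7.96 Mb in the knockout list, 5.95 Mb in the wild-type list and 3.36 Mb in the RYBP list. Wider stretches between neighbouring peaks numbered 26 of 20974 in the knockout, 47 of 24215 in the wild type and 74 of 9544 for RYBP. A distance of over 1 Mb from the nearest peak was found for 15.5% of protein-coding genes in the knockout, 13.8% in the wild type and 5.25% for RYBP. The part of chromosome 16 from 40 to 50 Mb held 1 knockout and 4 wild-type H2AK119ub peaks beside 13 RYBP peaks. Morc1, a germline gene 112 kb from Dppa2, was also free of peaks.

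Lin28b (gene ID 380669, chromosome 10, 45376617 to 45486314, minus strand) carried no mark in the knockout or in the wild type and had 1 RYBP peak of 2314 bp, from 45485136 to 45487449. RYBP without the mark in either genotype was seen at 16.4% of protein-coding genes. The gene span is 109698 bp, and a long gene has more room for a peak: of 2548 protein-coding genes with a window of at least 100 kb, 61.6% had RYBP, 35.8% had H2AK119ub in the knockout and 36.4% in the wild type. Of the 1570 long genes with RYBP, 41.3% had no mark in either genotype.

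The RYBP peak of Lin28b overlapped the higher-coordinate end of the gene span, which on the minus strand is its 5′ end, over 1179 bp. It did not touch the promoter printed above, whose start site lies inside the span, and ran from 17248 bp to 14935 bp upstream of it. The sequence beneath the peak was not used here. The nearest H2AK119ub peak lay 1371 kb from the gene in the knockout and 838 kb in the wild type. Bves, a gene for a membrane protein of muscle 4.13 kb below Lin28b, likewise had RYBP (1570 bp) and no mark, and Hace1, a ubiquitin ligase gene 91.5 kb above it, had no peak.

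Set side by side, the paralogs showed the following. Dppa2 and Dppa4 had the same pattern, with no peak of any library, and they share their surroundings. Lin28a and Lin28b lie on different chromosomes and shared RYBP, but only Lin28a had the mark.

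Over all 32619 RefSeq promoters, RYBP followed the number of CG dinucleotides more closely than the mark did. RYBP overlapped 1.21% of promoters with 0 to 4 CG, 7.96% with 5 to 9, 32.9% with 10 to 19, 47.9% with 20 to 29 and 63% with 30 or more. H2AK119ub in the knockout overlapped 2.75%, 8.22%, 11.3%, 10.4% and 11% of the same classes, and in the wild type 3.91%, 11.2%, 14.2%, 13.3% and 13.7%. The Utf1 and Lin28a promoters fall in the class of 10 to 19 CG. The Lin28b promoter printed above, which no peak overlapped, falls in the class of 5 to 9. CG was not counted at the 5′ end of the Lin28b gene span, where its RYBP peak lies. Genes share promoters and peaks, so these shares are descriptions.

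**Figure D5:**
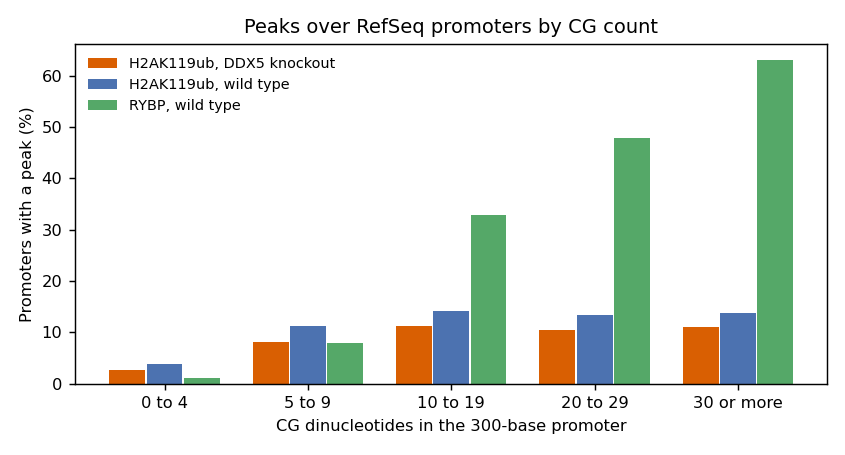
Share of RefSeq promoters of 300 bases, in percent, that a peak of each library overlaps, by number of CG dinucleotides, from few to many. RYBP climbs from 1.21% to 63% of promoters over the classes, while H2AK119ub in knockout and wild type stays between 8.22% and 14.2% from 5 CG upward.

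The genes whose covered lengths in the 3 libraries were most like those of each member were found by the smallest sum of absolute differences. For Utf1 they were Arl4c (995 bp of H2AK119ub in the knockout, 1574 bp in the wild type and 2062 bp of RYBP), and Fam229a and Tssk3, with 1049, 1621 and 2073 bp each. Fam229a and Tssk3 both lie on chromosome 4, and with identical values they may share the same peaks. For Lin28a they were Arhgef10l (769, 1185 and 916 bp), Dennd2d (806, 1057 and 1081 bp) and Ano5 (840, 1232 and 1231 bp). For Dppa3, with the wild-type mark alone, they were Sptssb (1446 bp), Bnipl (1451 bp) and Rnf224 (1452 bp), and for Lin28b, with RYBP alone, Nhs (2314 bp), Nt5m (2315 bp) and Cryab (2316 bp). The likeness rests on 3 libraries and, for the last groups, on a single value. For Dppa3 that value, 1448 bp, is only the part of its 4192 bp peak inside the flank, so the match does not extend to peak width or position.

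Genes that act with the members were read in the same windows. Of 9 genes for proteins of the LIN28 and let-7 pathway, the same 2 carried the mark in the knockout and in the wild type, and 6 had RYBP, beside 20.7% of protein-coding genes marked in both and 37.6% with RYBP. Trim71, a let-7 target that acts in early embryos, had 1038 bp of H2AK119ub in the knockout, 1618 bp in the wild type and 2232 bp of RYBP. Dicer1, the nuclease that cuts microRNA precursors, had 933, 1084 and 1871 bp. Tut4, the terminal uridylyl transferase that LIN28A recruits to let-7 precursors, had 1697 bp of RYBP and no mark.

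The share of microRNA genes marked in both genotypes is not given here, and 20.7% of protein-coding genes were. Of the 12 let-7 family genes, the RNAs that the LIN28 proteins hold back, 2 were marked in both genotypes. They are Mirlet7c-2 and Mirlet7b, neighbours on chromosome 15 that share their peaks, and their mature RNAs are given below from RefSeq (GRCm38.p6) with the shared seed, bases 2 to 8, in capitals.
let-7c-5p: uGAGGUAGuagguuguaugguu
let-7b-5p: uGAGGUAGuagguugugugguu

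The knockout had 1 peak there, from 85704736 to 85706071, and the wild type had 2, from 85704903 to 85706615 and from 85707087 to 85707973. The second wild-type peak spans the mature let-7b-5p site at 85707325 to 85707346, which no knockout peak covered. The mature let-7c-5p site at 85706616 to 85706637 falls between these wild-type peaks and was covered in neither genotype. It begins at the base after the first wild-type peak ends, so its lack of cover in the wild type rests on a peak edge. No RYBP peak lay within 2 kb of either gene. Mirlet7i had 1156 bp of RYBP without the mark, and the remaining 9 let-7 genes had no peak.

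Of 19 oocyte and early embryo genes, 1 was marked in the knockout, 3 in the wild type, and 4 had RYBP, against 23.6%, 27.9% and 37.6% of protein-coding genes. Tle6, a member of the subcortical maternal complex of the oocyte, had 1849 bp of the mark in the knockout and 6684 bp in the wild type. Khdc3, of the same complex, had none in the knockout and 1795 bp in the wild type, with 2204 bp of RYBP. Padi6, a gene for an oocyte arginine deiminase, had none in the knockout and 617 bp in the wild type. RYBP without the mark was found at 3 of the 19, against 16.4% of protein-coding genes. Among them were Tcl1 (1750 bp), which encodes a co-activator of AKT, and Zbed3 (980 bp). Dppa1, Dppa5a and the Zscan4 genes, markers of pluripotent or 2-cell-like cells, had no peak. Repeated gene families such as Zscan4 can lose reads that map to several copies, so their lack of peaks is uncertain.

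Of 17 partners and targets of DPPA3 and of DPPA2 and DPPA4, the mark lay at 6 in the knockout and at 9 in the wild type, with RYBP at 11, where 23.6%, 27.9% and 37.6% of protein-coding genes had these peaks. The 3 marked in the wild type alone were the de novo DNA methyltransferase gene Dnmt3a (4211 bp), the germline gene Mael (1810 bp) and the imprinted gene Zdbf2 (1037 bp), and all 3 had RYBP. Among those marked in both, Tet3, the oxidase of methylated DNA in the zygote, had 50655 bp in the knockout and 54807 bp in the wild type, the heart factor gene Nkx2-5 had 9630 and 9199 bp, and Dnmt3b had 3194 and 4834 bp. Tet3 lies on chromosome 6. Uhrf1, whose product DPPA3 restrains, and Dnmt1, the maintenance DNA methyltransferase gene, had no peak.

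Of 8 genes linked to UTF1, the knockout carried the mark at 2, the wild type at 3, and RYBP lay at 3, beside 23.6%, 27.9% and 37.6% of all protein-coding genes. Fgf4, a growth factor gene of pluripotent cells, had 830 bp in the knockout and none in the wild type. Mycn had none in the knockout and 1434 bp in the wild type, and Cdkn2a, the cell cycle inhibitor locus, none and 993 bp. Myc had 3780 bp in the knockout and 1550 bp in the wild type. Myc (4059 bp), Mycn (2563 bp) and Cdkn2a (2534 bp) were the 3 with RYBP. These lists hold few genes and nothing particular to them is claimed.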

How the data were processed

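The submitters' processing notes name Bowtie2 (version 2.2.5), MACS (version 1.4) and the mm10 build. What each tool did, which threshold defined a peak and whether the inputs served as controls is not given in the sources used here. Each library has a peak list of its own, as deposited by the authors. The deposited score column holds 0 for every peak and was not used. Starts were converted to positions counted from 1.

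A gene was marked when a peak overlapped its body and 2 kb flanks by at least 1 bp, and covered length is the base pairs of that window under peaks. Gene spans, without exons, were read from RefSeq's table for GRCm38.p6. The background is the share of protein-coding genes called in the same way. Shares of peaks have Wilson intervals at 95% (statsmodels 0.14.6, Python 3.11.15). The interval code was tested on 400 simulated windows. Promoter and microRNA sequences came from RefSeq. The planned comparison of protein sequences was not run.

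The members and lists were chosen with earlier results of these data known. The genes named were the members, Ddx5, Rybp, the nearest protein-coding neighbours, genes overlapped by a member's peak (there were none besides the members), at most 3 genes of a list for each class, at most 3 that held RYBP, ranked by covered length, and the 3 genes most like each member. Predicted genes were left out. List members named for having no peak, Mirlet7i, the genes around Utf1 in the closing observations, the comparisons with wide and with isolated peaks, peak-free stretches and CG classes were chosen after values had been seen. Alternatives were flanks of 0 and 5 kb, windows at gene ends, half-peak overlap (50%), a minimum width of 1 kb, lists cut to the same number of H2AK119ub peaks by width and merging within 2 kb.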

Additional observations from a re-analysis of the deposited data

How the results depend on the processing

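Of 42 counts of members under the 7 alternatives, 37 stayed within 1.5 times the reported count. These include the number marked in the knockout alone, which was 0 as reported and under every alternative. With peaks of at least 1 kb, the number marked in the knockout was 0, the number marked in both genotypes was 0 and the number marked in the wild type alone was 3 (Dppa3, Utf1 and Lin28a), since both knockout peaks are narrower than 1 kb. With a flank of 0 kb, and when 50% of a peak had to lie inside the window, the number marked in the wild type alone was 0, since the Dppa3 peak lies outside the gene and mostly beyond 2 kb. Under both settings the number marked in the wild type fell from 3 to 2, which lies on the bound of 1.5 times and was counted as within it. Flanks of 5 kb, windows at gene ends, equal numbers of the widest peaks and merging left all 6 counts as reported. Of 126 covered lengths, 9 moved beyond the 95% Wilson interval of the share of the window covered, a tighter bound than 1.5 times. With a flank of 0 kb, 5 of them did so. Many of the 126 were 0 bp as reported and stayed so, and the interval treats base pairs under 1 peak as independent. No paired analysis was possible because each group has 1 library, and for the same reason no library could be left out. The unknown read depth limits every absence of a peak.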

Other observations

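The surroundings of Utf1 differed by side. In the 50 kb below its window the knockout list held 9 H2AK119ub peaks over 10650 bp and the wild-type list 5 over 9487 bp. In the 50 kb above it the knockout list held 2 over 1385 bp and the wild-type list 6 over 7668 bp. Kndc1, a gene for a brain guanine nucleotide exchange factor, ends 2.32 kb below Utf1. Its body had 9968 bp covered in the knockout and 8647 bp in the wild type. On the other side, the body of the long non-coding RNA gene Gm16201 had no knockout peak and 5490 bp in the wild type, with 928 bp of RYBP. That of Spef1l, which overlaps Gm16201, had none in the knockout and 3680 bp in the wild type. The body of Adam8, the next gene above, had 1385 bp in the knockout and 2224 bp in the wild type. Utf1, with 959 bp in the knockout and 1698 bp in the wild type, lies between these stretches.

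Around Lin28a, Dhdds, a dolichol synthesis gene that ends 2.37 kb below Lin28a, had no peak of any library. The body of Crybg2, 41.5 kb above, had 4609 bp of H2AK119ub in the knockout and 10431 bp in the wild type, with 2078 bp of RYBP. Between Lin28a and Crybg2, the body of the pseudogene Zfp683 had 2057 bp in the knockout and 1927 bp in the wild type, without RYBP.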
